A study of Rattus norvegicus with 10 samples.

Results

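Solute carriers are membrane proteins that move small molecules across the plasma membrane or across the membranes of organelles, each family for its own kinds of substrate. In the mammary gland the secretory epithelium uses them to take up amino acids, glucose, phosphate and choline from blood and to load zinc, calcium phosphate and sugar nucleotides into secretory compartments, while mitochondrial carriers exchange nucleotides, phosphate and metabolites with the cytosol. The genes described here are the solute carrier genes with a clear signal in whole mammary tissue from E2-treated ACI and BN rats (E2 is 17beta-estradiol). A gene belonged to the group if its probe sets carried a single symbol beginning with Slc and a number, or with Slco, and was selected on measured level: its brightest probe set over the 10 arrays, taken to represent the gene, had to average at least 6 on the log2 scale in ACI or in BN. This left 122 genes in 45 families out of 308 solute carrier genes on the array, which in turn are part of 14217 genes measured. Of the 122, 2 carry such a symbol without being carriers: Slc4a1ap, an adaptor protein, and Slc7a6os, a gene on the strand opposite Slc7a6.

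The 5 ACI rats (ACI/SegHsd) and the 5 BN rats (Brown Norway) each contributed 1 gland on 1 array. E2 was delivered continuously by an implant under the skin from 9 weeks of age for 12 weeks in every rat. ACI is a strain that is prone to E2-induced mammary cancer and BN one that is resistant, and the glands were taken before cancers could be palpated. The identifiers of 3 rats of each strain begin with S and of 2 with H, letters that no source explains. ACI and BN arrays entered the archive in separate batches of accessions, so deposit and strain cannot be told apart, and the RNA protocol attached to the BN arrays mentions ACI rats only. Without untreated rats among the groups, each value compares the strains after E2 and shows no change caused by E2. Fold changes are ACI minus BN on the log2 scale, so that a positive value means higher in ACI, and a gene was called where limma gave an adjusted p under 0.05 over all probe sets.

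The arrays of a strain correlated at 0.981 to 0.995 in ACI and at 0.957 to 0.992 in BN, and BN rats 4 and 5 stood apart from the other BN rats along the second principal component, which held 18.9% of the variance. Markers of several cell types moved with strain. The mean of 8 B and plasma cell genes ranged over 2.82 to 2.94 in ACI rats and 4.16 to 9.09 in BN rats, with BN rat 3 the lowest; 10 T cell genes averaged 4.91 to 5.42 in ACI and 5.46 to 8.23 in BN; 8 macrophage genes averaged 7.84 to 8.19 in ACI and 8.81 to 9.97 in BN; 5 endothelial genes averaged 6.96 to 7.66 in ACI and 8.29 to 9.26 in BN; and 10 luminal epithelial genes averaged 10.1 to 10.5 in ACI and 9.24 to 9.92 in BN. Some single genes ran against the mean of their list. These were Krt19 among luminal genes (fold change -0.18), Cd4 (0.86) and Cd8a (0.10) among T cell genes, and Cd14 (0.09) among macrophage genes. None of them was called. In whole tissue, fewer cells of a type and less RNA per cell cannot be told apart. The luminal markers Epcam and Krt18 and the myoepithelial marker Krt14 were strongly detected in both strains. Esr1, the estrogen receptor gene, stayed at the lowest value of the data on every array of both strains. It was read by 1 probe set only, so this value does not show that the gene was not expressed.

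The level rule itself uses the strain means, so a gene that is low in 1 strain enters only if it is high in the other. Of the 122 genes, 100 reached a mean of 6 in both strains, 7 in ACI only and 15 in BN only. Tests are therefore given for the 111 genes whose mean over all 10 arrays was at least 6, a level that does not depend on the direction of the strain difference. The other 11 genes are described by their values alone. The 111 still include genes that reached 6 in 1 strain only. Among these are Slc27a3, Slc25a51l1 and Slc20a2 in ACI, and Slc7a1, Slc7a6, Slc6a8, Slc9a9 and Slc14a1 in BN. Of the 100 genes at 6 in both strains, 16 (16%) were called higher in ACI and 8 (8%) higher in BN. No count by this same rule was made over all genes. By the wider rule of an overall mean of at least 6, 12.5% of all genes were called higher in ACI and 12.3% higher in BN. Whether the 100 carriers differ from other genes was not tested. At the edge of the rule, Slc8b1 entered at 5.68 in ACI and 6.05 in BN and Slc38a1 with 4.09 in ACI and 6.18 in BN, while Slc41a2 (3.04 in ACI, 5.98 in BN) and Slc22a18 (4.97 in ACI, 5.96 in BN) stayed just outside it.

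Most expressed solute carriers were not called, and those that were differed in both directions. Of the 111 genes tested, 19 (17.1%) were called higher in ACI and 13 (11.7%) higher in BN, and 79 were not called. Among all 7304 genes with an overall mean of at least 6, 12.5% were called higher in ACI and 12.3% higher in BN, 24.8% in all. Values of the strains did not overlap for 28 of the 111 genes (25.2%), against 23.4% of the 7304 genes. The median fold change was 0.20 for the 111 carriers and 0.04 for the 7304 genes, and 83 of the 111 differed by less than 2-fold, as did 6068 of the 7304. With no rule on level, 30 of all 308 solute carrier genes were called higher in ACI and 30 higher in BN (9.74% each), against 8.29% and 9.12% of all 14217 genes, 17.4% in either direction, and 53 of the 308 did not overlap (17.2%, against 16.6% of all genes). The shares called and the shares without overlap lie near the background. The SD between rats was larger in BN for 84 of the 111 genes, with a median SD of 0.24 in ACI and 0.40 in BN. Among the 7304 genes it was larger in BN for 5492, with medians of 0.23 in ACI and 0.36 in BN. BN rat 5 was the BN rat farthest from the strain median for 44 of the 122 genes. In ACI, rat 5 was the farthest for 41 of the 122 and rat 1 for 34.

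**Figure D1:**
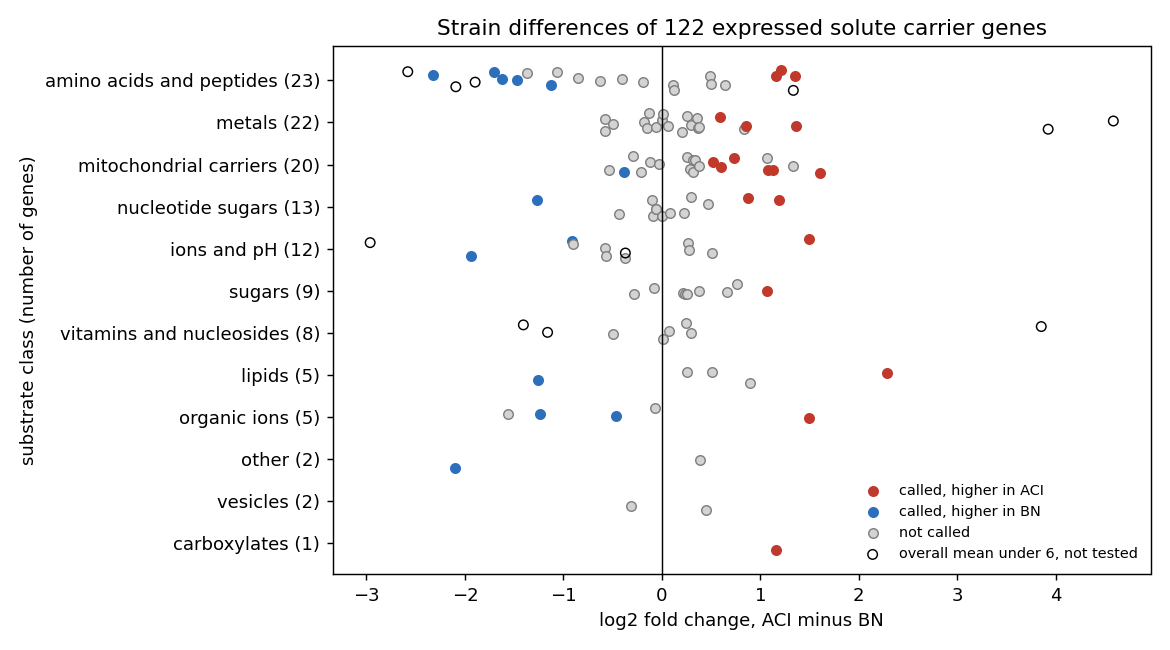
Log2 fold change (ACI minus BN, horizontal axis) of the 122 expressed solute carrier genes, 1 point per gene, in rows by substrate class with the number of genes in brackets. Filled red points were called higher in ACI, blue points higher in BN and grey points were not called; open circles are the 11 genes with an overall mean under 6, which were not tested and include the points farthest to the right.

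Among zinc carriers, 2 genes were clearly detected in every ACI rat and near background in most or all BN rats. Zinc enters the cytosol through the Slc39 (ZIP) family and leaves it, towards vesicles or the outside, through the Slc30 (ZnT) family. Slc30a2 (ZnT2) loads zinc into secretory vesicles of mammary epithelium, and in women its loss of function lowers the zinc of milk. Slc30a2 read 7.17, 7.36, 7.27, 7.56 and 7.92 in the 5 ACI rats and 2.99, 2.82, 2.78, 2.77 and 2.99 in the 5 BN rats. Every BN value lay under 4, where the arrays hold little more than background, so the ratio is a bound: the ACI mean was at least 11-fold higher than level 4. A second Slc30a2 probe set gave a mean of 7.34 in ACI and 2.77 in BN. Slc39a2 (ZIP2), an importer of zinc, was also lower in every BN rat, with 7.05, 7.46, 7.56, 7.49 and 7.51 in ACI rats and 2.76, 3.16, 4.08, 3.69 and 3.76 in BN rats. Since 4 of the 5 BN rats lay under 4, no fold is given. Both genes were close to uniform within ACI and low in every BN rat. Both passed the level rule through ACI alone, and since their overall mean was under 6 they carry no test here.

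Because the results for zinc turn on Slc30a2, Slc39a2 and the secretory carrier Slc30a4, which was not called, the RefSeq promoter windows of these genes (250 bases before to 50 after a start, assembly GRCr8, which comes from a BN rat) are shown, with the core letters of the metal response element in capitals. That element binds Mtf1, the factor that responds to zinc, and its core was searched as TGCACNC or TGCGCNC on either strand, so that a match on the other strand appears as its complement. RefSeq lists 2 starts of Slc30a2. The windows are chr5:151843201-151843500 and chr5:151843931-151844230 on the plus strand for Slc30a2, chr15:27063987-27064286 on the plus strand for Slc39a2, and chr3:130228839-130229138 on the minus strand for Slc30a4.
Slc30a2 first window: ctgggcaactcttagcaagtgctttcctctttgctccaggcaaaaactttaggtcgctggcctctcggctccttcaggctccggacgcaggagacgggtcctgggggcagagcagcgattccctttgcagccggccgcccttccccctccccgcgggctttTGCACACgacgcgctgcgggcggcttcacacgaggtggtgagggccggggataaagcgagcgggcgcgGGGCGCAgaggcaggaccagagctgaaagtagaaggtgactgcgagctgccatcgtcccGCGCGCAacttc
Slc30a2 second window: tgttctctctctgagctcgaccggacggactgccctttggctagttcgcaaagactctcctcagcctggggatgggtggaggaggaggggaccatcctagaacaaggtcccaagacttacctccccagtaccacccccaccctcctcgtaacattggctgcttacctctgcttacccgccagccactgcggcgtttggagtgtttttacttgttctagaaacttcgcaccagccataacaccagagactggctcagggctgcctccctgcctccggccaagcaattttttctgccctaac
Slc39a2: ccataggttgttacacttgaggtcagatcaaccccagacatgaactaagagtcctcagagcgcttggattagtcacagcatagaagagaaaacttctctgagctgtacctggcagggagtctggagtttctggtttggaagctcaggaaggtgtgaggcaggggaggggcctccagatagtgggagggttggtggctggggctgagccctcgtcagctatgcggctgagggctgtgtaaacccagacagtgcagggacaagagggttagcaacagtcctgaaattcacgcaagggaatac
Slc30a4: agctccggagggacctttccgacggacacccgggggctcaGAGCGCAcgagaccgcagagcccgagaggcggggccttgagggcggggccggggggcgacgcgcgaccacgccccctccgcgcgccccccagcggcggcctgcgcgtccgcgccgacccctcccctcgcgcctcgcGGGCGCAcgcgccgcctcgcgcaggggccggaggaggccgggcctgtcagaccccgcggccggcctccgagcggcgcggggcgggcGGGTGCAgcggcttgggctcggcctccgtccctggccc

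The first window of Slc30a2 held 3 core matches and the second none, that of Slc39a2 none, and that of Slc30a4 3. A match is common: 24.2% of 33469 promoter windows of this length held at least 1, with TGCACNC in 12.2% and TGCGCNC in 14.1%. Of the 122 carriers, 98 had a window, and 40.6% of their 106 windows held a match. The letters describe these windows only. Mtf1 itself averaged 7.22 ± 0.20 in ACI and 7.45 ± 0.58 in BN (SD, n = 5 each) and was not called, and the metallothionein Mt2A, a zinc-binding protein, averaged 12.6 ± 0.4 in ACI and 11.7 ± 0.8 in BN and was not called (adjusted p = 0.181).

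Of the other zinc carriers, a pair that serve the secretory pathway rose modestly in ACI. Slc30a7 (ZnT7), which moves zinc into the Golgi, averaged 7.39 ± 0.24 in ACI and 6.79 ± 0.19 in BN, a fold change of 0.59 (adjusted p = 0.0229). Slc39a7 (ZIP7), which releases zinc from the endoplasmic reticulum, averaged 9.51 ± 0.36 in ACI and 8.66 ± 0.34 in BN, a fold change of 0.85 (adjusted p = 0.0356), although ACI rat 5 at 8.88 lay below BN rat 4 at 9.21. Slc30a4 (ZnT4), the carrier whose loss in mice makes milk zinc-poor, was high in both strains, with 11.05, 10.54, 10.67, 10.83 and 10.80 in ACI rats and 10.60, 11.10, 11.63, 9.87 and 9.21 in BN rats (fold change 0.30, adjusted p = 0.754). The BN values of Slc30a4 bracketed those of ACI, the lowest in BN rats 4 and 5.

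The remaining zinc carriers were not called. Slc30a5 (ZnT5) and Slc30a6 (ZnT6), which form a pair in the early secretory pathway, had fold changes of 0.01 and 0.00, and Slc30a9 one of 0.20. Among importers, Slc39a1 averaged 10.6 in ACI and 10.2 in BN, Slc39a14 averaged 9.17 in ACI and 8.81 in BN, and Slc39a10, Slc39a11 and Slc39a13 had fold changes between -0.50 and -0.15. Slc39a8, an importer of zinc and manganese, ranged over 9.49 to 9.91 in ACI rats but over 7.43 to 10.62 in BN rats, with BN rat 5 the lowest. Slc39a6 (LIV-1), known as an estrogen-induced gene in human breast cancer cells, averaged 6.63 ± 0.19 in ACI and 7.21 ± 0.44 in BN (adjusted p = 0.124).

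Of the iron carriers, the importer was called and the exporter was not. Slc11a2 (DMT1), which brings ferrous iron into the cytosol, read 8.89, 8.73, 8.63, 8.94 and 9.29 in ACI rats and 7.45, 7.80, 7.97, 7.29 and 7.16 in BN rats, without overlap (fold change 1.36 ± 0.19 (SE), adjusted p = 0.00216). Slc40a1 (ferroportin), the iron exporter, averaged 7.82 in ACI and 8.39 in BN (fold change -0.57, adjusted p = 0.226), and a second of its probe sets gave 0.34. Of the iron genes outside the family, the transferrin receptor Tfrc rose in ACI, with 12.2 ± 0.1 in ACI and 10.9 ± 0.7 in BN (fold change 1.36, adjusted p = 0.0265), and ceruloplasmin, Cp, a copper-carrying ferroxidase, fell by 1.88 (adjusted p = 0.000254).

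Copper uptake through Slc31a1 (CTR1) depended on the probe set. The representative probe set averaged 8.85 ± 0.22 in ACI and 8.91 ± 0.92 in BN (fold change -0.06, adjusted p = 1.0), while the 3 others gave fold changes of 0.65, 1.34 and 2.2, each called higher in ACI. The remaining metal carriers, Slc31a2, Slc41a1 (magnesium), Slc48a1 (heme) and Slc49a4, had fold changes between -0.13 and 0.83 and were not called. Of the 20 metal carriers tested, 3 were called, Slc11a2, Slc30a7 and Slc39a7, each higher in ACI (15%, against 12.5% of all genes at that level).

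**Figure D2:**
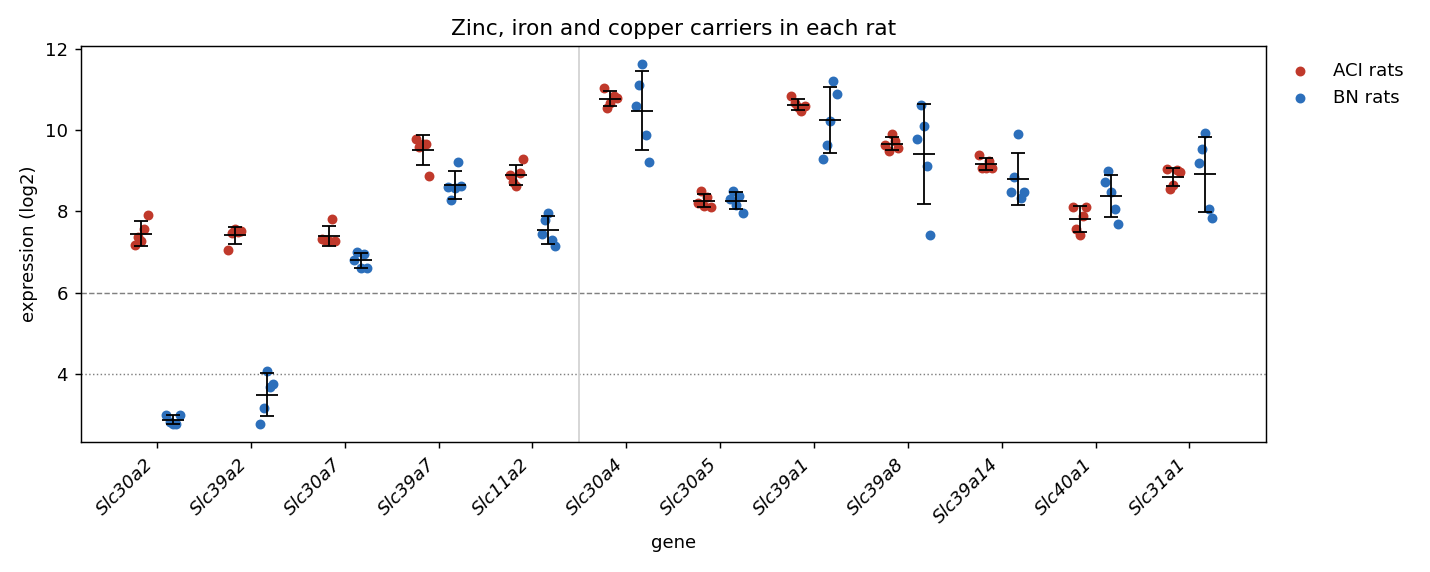
Expression (log2) of 12 zinc, iron and copper carriers in each rat, ACI in red and BN in blue, with mean and SD in black; dashed line at 6 marks the level rule and dotted line at 4 the background level. The 5 genes left of the grey line were higher in ACI, with Slc30a2 at or under 2.99 in every BN rat, and the 7 to the right were not called, several with wide spread among BN rats.

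The class of amino acids and peptides held 23 of the 122 genes, 1 of them Slc7a6os, which is no carrier. Of its 19 tested genes, 3 were called higher in ACI and 5 higher in BN (15.8% and 26.3%, against 12.5% and 12.3% of all genes at that level). The ACI-higher genes were Slc7a7, Slc43a2 and Slc66a2. Slc7a7 (y+LAT1), a light chain that exchanges cationic for neutral amino acids in partnership with Slc3a2, read 7.62, 7.77, 7.64, 7.87 and 7.43 in ACI rats and 6.62, 6.47, 6.03, 6.31 and 6.15 in BN rats (fold change 1.35 ± 0.13 (SE), adjusted p = 0.000379). Slc43a2 (LAT4), a uniporter of branched-chain and aromatic amino acids, averaged 8.44 ± 0.27 in ACI and 7.23 ± 0.27 in BN (fold change 1.21, adjusted p = 0.00234), and a second probe set gave 1.55, also called. Slc66a2, of the PQ-loop family, averaged 8.85 ± 0.43 in ACI and 7.69 ± 0.25 in BN (adjusted p = 0.00996).

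Carriers of cationic amino acids and glutamate were among those higher in BN. Slc7a6 (y+LAT2), the close relative of Slc7a7 and likewise a partner of Slc3a2, showed the opposite order, with 5.69, 5.48, 5.83, 5.33 and 5.60 in ACI rats and 7.42, 7.52, 7.46, 7.12 and 6.52 in BN rats (fold change -1.62 ± 0.20 (SE), adjusted p = 0.00135). Both light chains were separated between the strains without overlap. Their shared heavy chain Slc3a2 (4F2hc) read 10.79, 10.33, 10.28, 10.53 and 9.98 in ACI rats and 9.81, 9.67, 10.31, 9.78 and 9.85 in BN rats (adjusted p = 0.102), and Slc7a5 (LAT1), another partner of the heavy chain, was low in both strains at 3.50 in ACI and 3.42 in BN. Slc7a6os, read from the strand opposite Slc7a6, averaged 7.35 in ACI and 6.72 in BN and was not called.

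Slc7a1 (CAT1), the main uptake route for arginine and lysine in many cells, read 4.83, 5.46, 4.91, 5.34 and 4.76 in ACI rats and 8.04, 8.43, 7.73, 7.37 and 5.34 in BN rats. BN rat 5 lay within the ACI range and the other 4 BN rats well above it. The fold change was -2.32 ± 0.54 (SE, adjusted p = 0.0264; exact permutation p = 0.0238, two-sided); leaving out any rat other than BN rat 5 raised the adjusted p above 0.05, to at most 0.0675. A second Slc7a1 probe set gave -1.36 and was not called.

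Slc1a3 (GLAST), a glutamate importer, averaged 7.81 ± 0.46 in ACI and 9.51 ± 0.22 in BN (fold change -1.70, adjusted p = 0.00179). Slc6a8, the creatine carrier, averaged 5.84 ± 0.42 in ACI and 6.97 ± 0.15 in BN (fold change -1.13, adjusted p = 0.00679). Slc66a3 averaged 7.96 ± 0.21 in ACI and 9.44 ± 0.57 in BN (adjusted p = 0.00792). For each of these 3 genes the lowest BN rat lay above the highest ACI rat.

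Slc15a3, Slc38a1 and Slc36a2 passed the level rule in BN only and Slc38a3 in ACI only. Each had an overall mean under 6 and is therefore described without a test. Slc15a3, a lysosomal carrier of peptides and histidine known from immune cells, read 4.22, 4.03, 4.22, 3.92 and 4.22 in ACI rats and 7.23, 6.71, 6.73, 6.54 and 6.30 in BN rats, with the narrowest spread of these genes. Slc38a1 (SNAT1), a glutamine importer, ranged over 3.80 to 4.36 in ACI and 5.40 to 7.20 in BN, and Slc36a2 (PAT2), a proton-coupled importer of small amino acids that is also known from fat cells, ranged over 3.78 to 5.21 in ACI and 5.61 to 7.07 in BN. Slc38a3 (SNAT3) ran the other way, with 6.13 to 6.74 in ACI and 4.39 to 5.85 in BN. The B and plasma cell, T cell, macrophage and endothelial means were likewise higher in every BN rat than in any ACI rat, and their part in these values was not tested.

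Other amino acid carriers of the gland did not pass the test. Slc38a2 (SNAT2), a hormone- and starvation-responsive importer, averaged 10.3 ± 0.2 in ACI and 10.2 ± 0.3 in BN (adjusted p = 0.688). Slc1a5 (ASCT2), a glutamine exchanger, averaged 8.16 ± 0.59 in ACI and 9.22 ± 0.38 in BN (fold change -1.06, adjusted p = 0.0593). The taurine carrier Slc6a6, the neutral amino acid exchanger Slc7a8 and the peptide carrier Slc15a2 had fold changes of 0.49, -0.63 and -0.85, and Slc43a1 (LAT3) one of -1.37 with a wide spread, 4.93 to 7.35 in ACI and 6.61 to 8.24 in BN. Slc15a4, Slc38a10 and Slc66a1 lay between -0.40 and 0.12.

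From a list of 8 genes of amino acid response and synthesis, Phgdh, which begins serine synthesis, rose in ACI (9.91 ± 0.40 in ACI, 8.28 ± 0.10 in BN, adjusted p = 0.000825) and Ddit3 fell by 0.90 (adjusted p = 0.0333). The other 6 were not called. Among them, Atf4, the factor that drives several amino acid carriers when amino acids are short, averaged 10.8 in both strains, and Asns averaged 9.75 in ACI and 8.72 in BN (adjusted p = 0.0739).

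**Figure D3:**
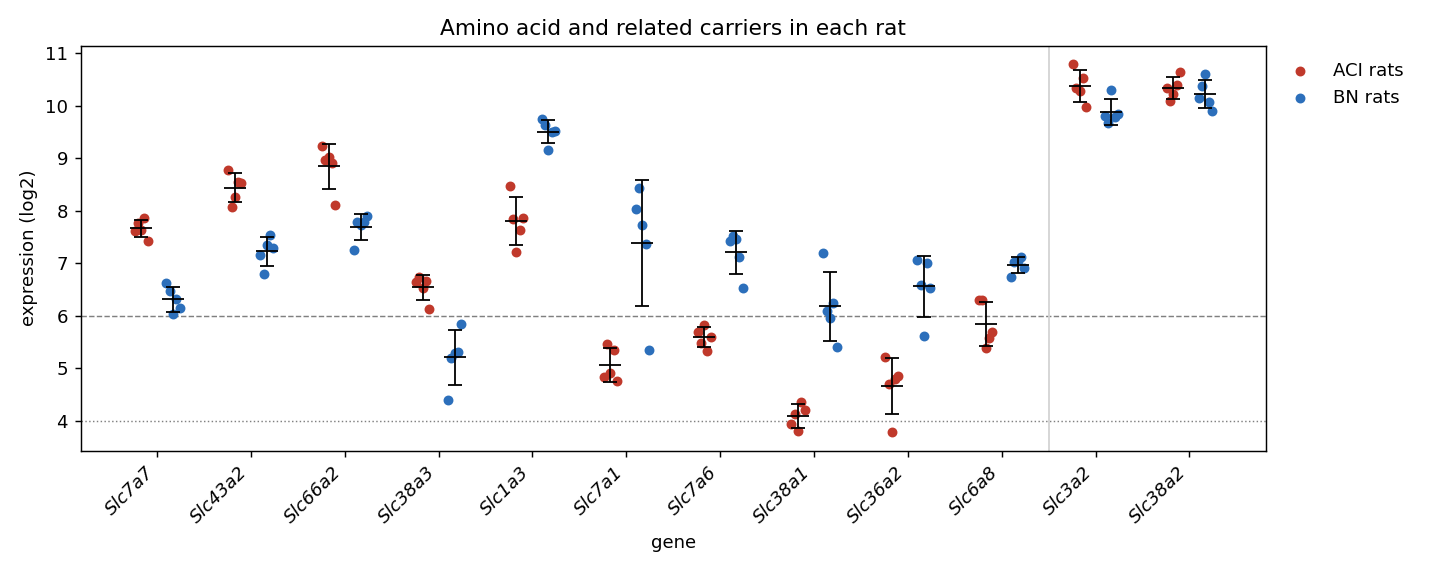
Expression (log2) of 12 amino acid and related carriers in each rat, ACI in red and BN in blue, with mean and SD in black; dashed line at 6 and dotted line at 4. The first 4 genes had the higher mean in ACI and the next 6 the higher mean in BN, where BN rat 5 is the low point of Slc7a1 at 5.34; Slc3a2 and Slc38a2, right of the grey line, were not called. Slc38a3, Slc38a1 and Slc36a2 were not tested.

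Of the 20 mitochondrial carriers of the Slc25 family that were tested, 6 (30%) were called higher in ACI and 1 (5%) higher in BN, against 12.5% and 12.3% of all genes at that level, and whether the family differs from other genes was not tested. The median fold change was 0.33. Of the 6 calls, those of Slc25a4 and Slc25a23 each held in 2 of the 10 leave-one-out fits, in which a single rat is dropped. Slc25a51l1, which carries the name of the NAD carrier Slc25a51, read 7.78, 7.55, 7.54, 7.56 and 7.14 in ACI rats and 6.03, 6.40, 5.94, 5.67 and 5.52 in BN rats (fold change 1.60 ± 0.18 (SE), adjusted p = 0.000908). Slc25a39, needed for mitochondrial glutathione, averaged 9.56 ± 0.26 in ACI and 9.04 ± 0.07 in BN (adjusted p = 0.023). Slc25a20, which exchanges carnitine for acylcarnitine so that fatty acids can be oxidised, averaged 7.53 ± 0.16 in ACI and 6.93 ± 0.29 in BN (adjusted p = 0.0278), and Slc25a16, linked to coenzyme A, averaged 8.55 ± 0.26 in ACI and 7.81 ± 0.38 in BN (adjusted p = 0.0449). Of 5 genes of carnitine and fatty acid use, Acadm fell by 0.41 (adjusted p = 0.0395) and the other 4 were not called.

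The ADP/ATP carriers, which exchange ADP and ATP across the inner membrane, gave different results for the 2 isoforms. Slc25a4 (ANT1), the form of heart and skeletal muscle, read 11.50, 12.14, 11.83, 11.86 and 11.65 in ACI rats and 9.97, 10.29, 10.65, 11.25 and 11.43 in BN rats (fold change 1.08 ± 0.29 (SE), adjusted p = 0.0448). The mean of 11 skeletal muscle genes ranged over 6.95 to 11.4 in ACI and 3.83 to 10.3 in BN, and the highest Slc25a4 level in each strain was in the rat with the most muscle signal. With that mean as a covariate the fold change was 0.57 (adjusted p = 0.249), and it was 1.52 among rats whose identifiers begin with S and 0.41 among those with H. Slc25a5 (ANT2), the form of proliferating cells, was 12.64 to 12.81 in ACI rats and 12.67, 12.60, 12.75, 12.04 and 11.90 in BN rats (fold change 0.31, adjusted p = 0.334).

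**Figure D4:**
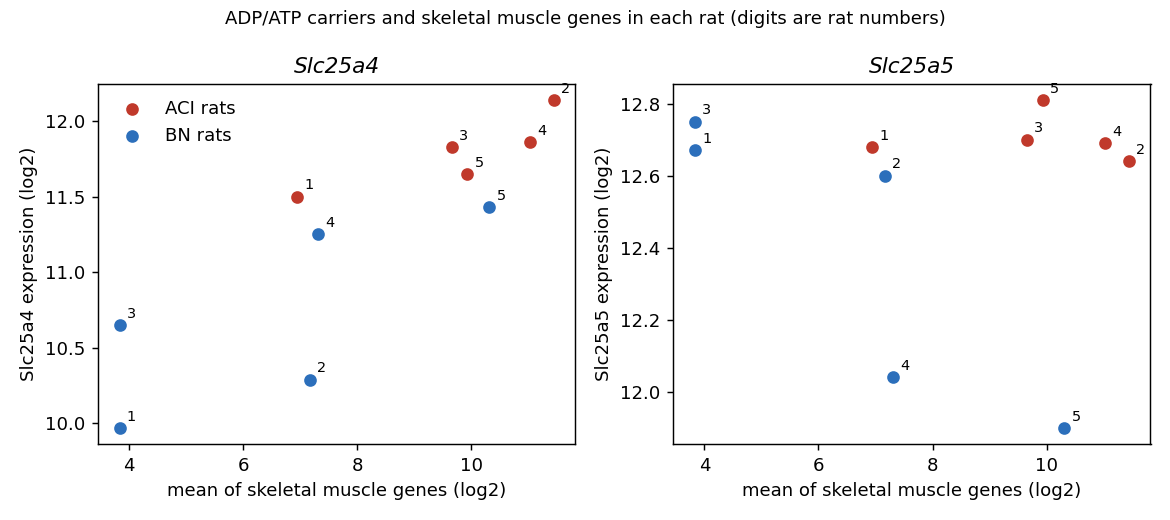
Expression (log2) of the ADP/ATP carriers Slc25a4 (left) and Slc25a5 (right) in each rat against the mean of 11 skeletal muscle genes (log2), ACI in red and BN in blue, with digits giving the rat numbers. Slc25a4 is highest in the rat with the most muscle signal in each strain, while Slc25a5 is lowest in BN rats 4 and 5, at 12.04 and 11.90.

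Slc25a23, the calcium-regulated ATP-magnesium/phosphate carrier, averaged 8.10 ± 0.27 in ACI and 6.97 ± 0.62 in BN (adjusted p = 0.0389). Slc25a46, an outer membrane protein of mitochondrial dynamics, was the one carrier of the family called higher in BN, with 9.81 ± 0.10 in ACI and 10.2 ± 0.2 in BN (adjusted p = 0.0389), and its second probe set gave 0.16 and was not called. Slc25a3, the phosphate carrier, averaged 12.3 ± 0.1 in ACI and 11.9 ± 0.3 in BN (adjusted p = 0.123). Slc25a1, which exports citrate for fatty acid synthesis, had a fold change of 0.29. Slc25a13, the aspartate-glutamate carrier, and Slc25a10, the dicarboxylate carrier, had fold changes of 1.33 (adjusted p = 0.0647) and 1.07 (adjusted p = 0.224), with BN rats spread over 6.38 to 8.69 and 5.90 to 8.07. The other 8 lay between -0.54 and 0.38.

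Among the fatty acid carriers, 1 of 2 was called, where 24.8% of all genes with an overall mean of at least 6 were called. Slc27a3, of the family that activates and takes up long-chain fatty acids, read 7.73, 7.94, 8.08, 7.82 and 7.18 in ACI rats and 5.14, 5.43, 5.26, 5.77 and 5.73 in BN rats. The lowest ACI rat lay above the highest BN rat by more than 1 log2 unit. The fold change was 2.28 ± 0.19 (SE, adjusted p = 0.000224), that is 4.87-fold. Slc27a1, the relative best known from fat and muscle, averaged 8.30 ± 0.61 in ACI and 7.41 ± 0.29 in BN (adjusted p = 0.0923). Of the choline carriers, Slc44a2 fell in ACI, with 7.61 ± 0.34 in ACI and 8.87 ± 0.16 in BN (fold change -1.26, adjusted p = 0.00186), whereas Slc44a1 (10.5 in ACI, 9.98 in BN) and Slc44a4 (7.85 in ACI, 7.59 in BN) were not called.

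Of the 3 phosphate carriers of the gland 1 was called, where 24.8% of all genes with an overall mean of at least 6 were called. Slc20a2 (PiT-2), a sodium-coupled phosphate importer, read 6.97, 6.69, 6.61, 6.93 and 6.64 in ACI rats and 4.59, 4.65, 5.59, 5.91 and 5.64 in BN rats (fold change 1.49 ± 0.28 (SE), adjusted p = 0.00944). Its relative Slc20a1 (PiT-1) averaged 9.64 ± 0.15 in ACI and 10.01 ± 0.29 in BN (adjusted p = 0.146). Slc34a2 (NaPi-IIb), the apical phosphate carrier of secretory epithelia, averaged 11.5 ± 0.1 in ACI and 11.2 ± 0.4 in BN (adjusted p = 0.513).

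Carriers of sodium, chloride, bicarbonate and urea included several that were higher in BN. The class of ions and pH, which includes the phosphate carriers but not the urea channel, had 10 tested genes. Of these, 1 (10%) was called higher in ACI and 2 (20%) higher in BN. The shares of all genes with an overall mean of at least 6 were 12.5% and 12.3%. Slc4a4 (NBCe1), a sodium bicarbonate cotransporter, read 3.39, 3.32, 3.70, 3.21 and 3.66 in ACI rats and 5.92, 5.83, 6.88, 6.37 and 7.09 in BN rats; every ACI rat was under 4 and the BN mean at least 5.34-fold above that level, with no test. Slc12a2 (NKCC1), the basolateral sodium-potassium-chloride cotransporter, averaged 9.79 ± 0.15 in ACI and 10.7 ± 0.3 in BN without overlap (fold change -0.92, adjusted p = 0.00366). Slc9a9 (NHE9), an endosomal sodium-proton exchanger, averaged 5.20 ± 0.37 in ACI and 7.14 ± 0.68 in BN (fold change -1.94, adjusted p = 0.00717). Slc14a1 (UT-B), a urea channel, varied within both strains, with 6.38, 4.80, 5.65, 6.72 and 4.69 in ACI rats and 7.93, 7.20, 8.43, 7.97 and 7.21 in BN rats (fold change -2.10 ± 0.46 (SE), adjusted p = 0.02).

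The anion exchanger Slc4a2, the bicarbonate cotransporter Slc4a7, the potassium-chloride cotransporter Slc12a7, the sodium-calcium exchanger Slc8a1 and the adaptor Slc4a1ap had fold changes between -0.90 and 0.51 and were not called. Slc8b1, the mitochondrial sodium-calcium exchanger, overlapped between strains (5.25 to 6.0 in ACI, 5.73 to 6.62 in BN). Of 6 listed genes of pH and chloride handling, Car4, Car12, Cftr and Scnn1a were near background in both strains. Of the other 2, Clcn3 was not called and carbonic anhydrase Car2 was, with 12.2 ± 0.1 in ACI and 9.97 ± 0.45 in BN (fold change 2.24, adjusted p = 0.000336).

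Glucose and lactate carriers gave 2 calls, 1 among the 9 tested genes of the sugar class and 1 for the only carboxylate carrier tested. Of all genes with an overall mean of at least 6, 24.8% were called. Slc50a1 (SWEET1), a sugar uniporter, averaged 10.7 ± 0.3 in ACI and 9.60 ± 0.52 in BN without overlap (fold change 1.07, adjusted p = 0.0274). Slc16a1 (MCT1), which carries lactate and pyruvate with protons, read 10.83, 10.41, 10.44, 10.98 and 9.66 in ACI rats and 8.77, 9.28, 9.65, 9.51 and 9.30 in BN rats (fold change 1.16 ± 0.27 (SE), adjusted p = 0.0243), where ACI rat 5 at 9.66 all but met BN rat 3 at 9.65. Its chaperone Bsg averaged 10.8 ± 0.7 in ACI and 10.2 ± 0.4 in BN (adjusted p = 0.428), and Emb, the other known chaperone, fell by 1.82 (adjusted p = 0.0105). Both calls were kept in 4 of the 10 fits that each left out 1 rat.

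Slc2a1 (GLUT1), the main glucose carrier of mammary epithelium, averaged 7.81 ± 0.18 in ACI and 7.56 ± 0.67 in BN (adjusted p = 0.669), and the insulin-responsive Slc2a4 (GLUT4) averaged 7.14 ± 0.67 in ACI and 7.42 ± 0.75 in BN. Slc5a3, the myo-inositol carrier, had the widest BN range of the class, with 7.70 to 8.81 in ACI rats and 5.57 to 9.38 in BN rats, BN rat 5 the lowest. Slc5a6, Slc37a1, Slc37a4, Slc45a3 and Slc45a4 lay between -0.08 and 0.76 and were not called. Classes follow the family and not the substrate of each member, and the family of Slc5a6 carries sugars and other small solutes with sodium. In the list of 8 measured genes for lactose and sugar nucleotides, Ugp2, which makes UDP-glucose, rose by 0.39 in ACI (adjusted p = 0.0442) and Lalba, the lactose synthase cofactor, fell by 0.27 (adjusted p = 0.0492).

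Carriers of the Golgi and endoplasmic reticulum, the Slc35 family, were called in 3 of 13. Of these, 2 (15.4%) were higher in ACI and 1 (7.69%) in BN, against 12.5% and 12.3% of all genes with an overall mean of at least 6. Slc35b2, which brings the sulfate donor PAPS into the Golgi, averaged 8.49 ± 0.12 in ACI and 7.61 ± 0.27 in BN (fold change 0.87, adjusted p = 0.003). Slc35b4, which carries UDP-xylose and UDP-N-acetylglucosamine, ran the other way, with 6.68, 6.42, 6.20, 6.43 and 6.18 in ACI rats and 8.05, 7.78, 7.48, 7.67 and 7.25 in BN rats (fold change -1.26 ± 0.16 (SE), adjusted p = 0.00151). Slc35f5, whose substrate is not settled, averaged 7.88 ± 0.21 in ACI and 6.69 ± 0.41 in BN (adjusted p = 0.00627). The CMP-sialic acid carrier Slc35a1 (9.09 in ACI, 9.15 in BN) and the other 9 had fold changes between -0.43 and 0.47 and were not called.

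Organic ion carriers gave 1 gene higher in ACI (20%) and 2 higher in BN (40%) out of 5, against 12.5% and 12.3% of all genes with an overall mean of at least 6. Slc22a23 averaged 8.36 ± 0.19 in ACI and 6.87 ± 0.40 in BN (fold change 1.49, adjusted p = 0.00171). Slco2b1, a carrier of steroid sulfates and other organic anions, averaged 7.13 ± 0.40 in ACI and 8.38 ± 0.29 in BN (fold change -1.24, adjusted p = 0.00647), with ACI rat 1 at 7.82 the nearest to the BN rats. Slco3a1 averaged 7.32 ± 0.15 in ACI and 7.78 ± 0.20 in BN (adjusted p = 0.0272). Slc22a3 (OCT3), a carrier of organic cations, read 5.83 in 3 ACI rats, a value that is that probe set's lowest, and 6.95 to 8.91 in BN rats (adjusted p = 0.0588). Slc22a17 was not called.

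Among nucleoside carriers, 1 gene had every BN rat under level 4. Slc28a3 (CNT3), a concentrative importer of purine and pyrimidine nucleosides, read 6.93, 7.78, 6.43, 7.03 and 6.10 in ACI rats and 2.77, 2.77, 3.01, 3.57 and 2.88 in BN rats, so that the ACI mean was at least 7.23-fold above level 4. Its purine-preferring relative Slc28a2 (CNT2) averaged 8.94 ± 0.25 in ACI and 8.70 ± 0.59 in BN (adjusted p = 0.66). The equilibrative carrier Slc29a1 (ENT1) ran opposite to Slc28a3, with 4.88 to 5.0 in ACI and 5.81 to 7.38 in BN, and Slc23a2, a vitamin C carrier, met at the edge, with 4.65 to 5.43 in ACI and 5.43 to 6.96 in BN. Slc28a3, Slc29a1 and Slc23a2 carry no test.

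The last few carriers were not called: Slc29a3, Slc46a3, Slc52a2 and the thiamine carrier Slc19a2 among vitamins and nucleosides, Slc33a1, the acetyl-CoA carrier, and the vesicle or lysosome carriers Slc17a5 and Slc18b1, with fold changes between -0.50 and 0.45. Slc19a2 read 6.71 on 7 of 10 arrays, 3 ACI and 4 BN, which is also its lowest value. Such repeats of the lowest value on 3 or more arrays occurred in 3 of the 122 carriers (Slc19a2, Slc22a3 and Slc29a1).

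**Figure D5:**
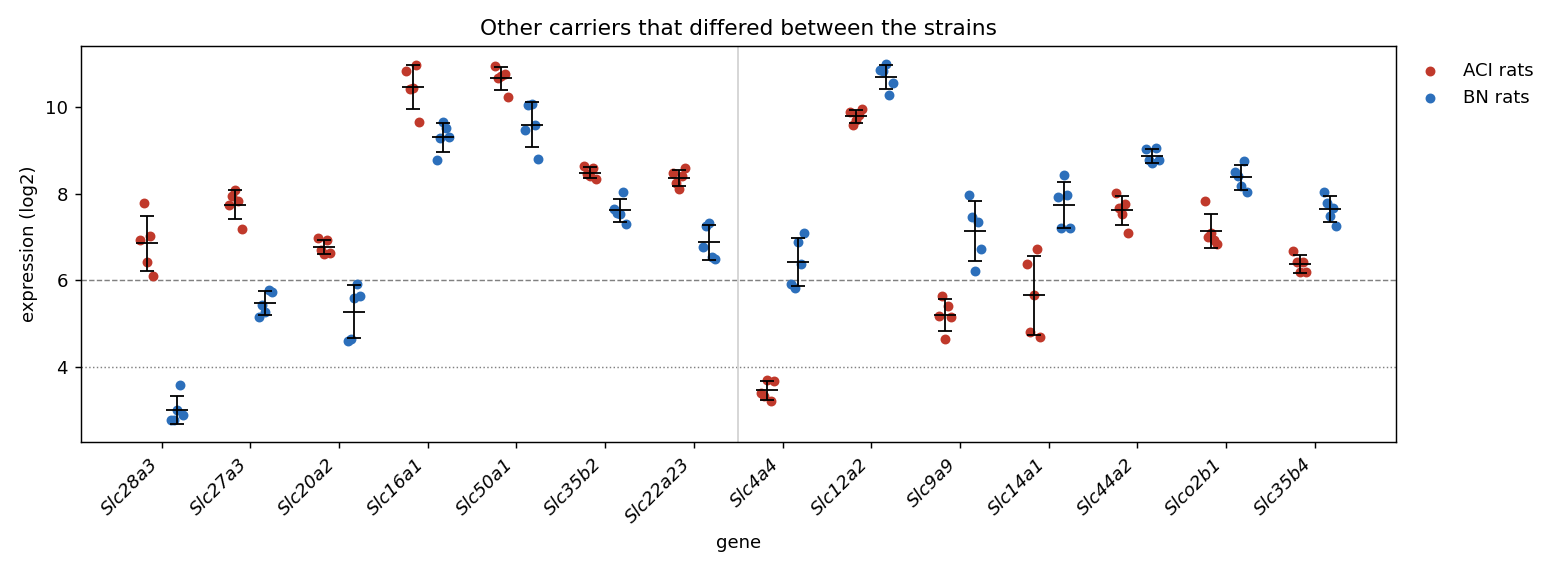
Expression (log2) of 14 further carriers in each rat, ACI in red and BN in blue, with mean and SD in black; dashed line at 6 and dotted line at 4. The 7 genes left of the grey line were higher in ACI, with Slc28a3 under 4 in every BN rat, and the 7 right of it higher in BN, with Slc4a4 under 4 in every ACI rat; Slc28a3 and Slc4a4 were not tested.

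From a list of 31 solute carriers known in mammary epithelium or milk secretion, 24 passed the level rule and 21 were tested. Slc20a2, Slc11a2 and Slc16a1 were called higher in ACI and Slc12a2 higher in BN, where 12.5% and 12.3% of all genes at that level were called in these directions, and the other 17, among them Slc2a1, Slc34a2, Slc30a4 and Slc38a2, were not called. Slc5a1, Slc5a5, Slc35a2 and Slc22a5 were under 4 on every array.

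Set beside other membrane transporters, the solute carriers had similar shares called. Of 40 ABC transporters, aquaporins and ion pumps with an overall mean of at least 6, 7 (17.5%) were called higher in ACI and 5 (12.5%) higher in BN. The aquaporins Aqp3 and Aqp5, water channels of secretory epithelia, rose in ACI by 3.24 and 3.11 (adjusted p = 0.0034 and 0.000230), and Abca1, which exports cholesterol, fell by 2.84 (adjusted p = 0.0145). Whether the solute carriers differ from these transporters in how often they differ between strains was not tested.

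Adding the skeletal muscle mean as a covariate left 6 of the 13 BN-higher calls. In either direction it kept the call of 14 of the 25 called genes that the naming rule took. The ACI-higher ones that lost it were Slc20a2, Slc16a1, Slc66a2, Slc25a23 and Slc25a4. Adding the lymphocyte means, which do not overlap between the strains, left 2 of the 19 ACI-higher calls and none of the 13 BN-higher calls, 1 other gene being called. What part these cells have in the differences was not tested beyond these fits. Leaving out each rat in turn kept all 10 calls for 18 of the 25 called genes that the naming rule took, among them Slc27a3, Slc7a7, Slc11a2, Slc7a6 and Slc1a3, whereas Slc16a1, Slc50a1, Slc25a23, Slc25a4, Slco3a1, Slc14a1 and Slc7a1 lost theirs in at least 1. The rule took most of these genes for a call without overlap on these same arrays. A kept call is therefore largely set by that choice and is no independent support.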

How the data were processed

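Total RNA of whole mammary glands from 5 ACI and 5 BN rats was hybridised to Affymetrix whole-genome rat arrays, 1 rat per array. The deposited values are log2 expression per probe set that the authors obtained with GCRMA (version 2.18.1 in the submitters' processing notes), a method that corrects for background, quantile-normalises and summarises probes; no source used here states which arrays were normalised together. The values were used as deposited. After removal of 57 control probe sets, 31042 remained, of which 20826 carried 1 gene symbol in the platform annotation. A gene was represented by its probe set with the highest mean over the 10 arrays, so levels of different genes are not compared.

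Strains were compared with limma (version 3.58.1, R 4.3.3; lmFit and eBayes, strain as the only term), with Benjamini-Hochberg adjustment over all 31042 probe sets and a call at an adjusted p under 0.05. The fit was tested on simulated data. Spreads are SDs over 5 rats; the number of arrays limits the precision. Where all rats of a strain were under 4, folds were set against level 4. Promoter windows came from RefSeq (GRCr8).

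The genes and lists were chosen with earlier results of these data known. Genes were named if they were among the 12 called members with the largest change in each direction without overlap, on the list of gland transporters, among the 10 with the highest mean, among the 6 in each direction with the largest difference that passed the level rule in 1 strain only, or among the 2 nearest to level 6 on each side. Every other member was named to complete its class, after its values were seen.

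Alternatives covered a replicate block, the letter of the rat identifier as a block and each letter alone, leaving out each rat or BN rats 4 and 5, a filter and a floor at level 4, quantile normalisation, centring, the methods' Student test, trended and robust variance, other choices of probe set, other levels for the rule, and muscle or lymphocyte covariates.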

Additional observations from a re-analysis of the deposited data

Results flagged for a closer look

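Among 112 groups of 5 rats tested for a rat far from the other 4, 8 had one, where chance gives about 1 in 20. These were Slc35f5 in BN rat 3 at 7.40 (others 6.34 to 6.62), Slc66a2 in BN rat 1 at 7.25 (others 7.72 to 7.89), Slco2b1 in ACI rat 1 at 7.82 (others 6.84 to 7.10), Slc3a2 in BN rat 3 at 10.31 (others 9.67 to 9.85), and Slc7a8 in ACI rat 5 at 5.29 (others 6.17 to 6.46). Slc39a2 had ACI rat 1 at 7.05 (others 7.46 to 7.56). Slc29a1 had both ACI rat 1 at 5.0, where the other ACI rats lay between 4.88 and 4.89, and BN rat 3 at 7.38, where the other BN rats lay between 5.81 and 6.24.

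The strain difference of 3 members differed between rats whose identifiers begin with H and with S, by the interaction term of the limma fit, against 2.76% of all probe sets. For Slc25a5 the difference was 0.78 in H rats and 0.00 in S rats, apart by 0.78 (adjusted p = 0.0146). For Slc31a1 it was 1.04 in H rats and -0.80 in S rats, apart by 1.84 (adjusted p = 0.0442). For Slc39a6 it was 0.04 in H rats and -0.99 in S rats, apart by 1.03 (adjusted p = 0.0433). The H rats are 2 per strain, and the BN ones are rats 4 and 5, which stood apart in the second principal component.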

How the results depend on the processing

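Of 1150 fold changes of the 46 tested named genes under the alternatives, 966 kept their direction and side of the threshold (Slc25a5 in S rats alone, at 0, counted among them), 132 lost and 17 gained a call, and 35, of 15 genes, turned. None of the 35 was called under its alternative, and 1, Slc25a23, is of a called gene. With lymphocyte covariates, the turned values were -0.025 for Slc25a23, -0.875 for Slc2a1, -0.463 for Slc34a2, -1.09 for Slc30a4, -0.555 for Slc39a8, -1.03 for Slc39a14, -0.081 for Slc35b1, -0.493 for Slc25a1, -0.368 for Slc38a2, -0.079 for Slc25a5 and -0.437 for Slc44a1. In S rats alone they were -0.143 for Slc2a1, -0.357 for Slc30a4, -0.037 for Slc30a5, -0.49 for Slc39a8, -0.153 for Slc38a2 and -0.1 for Slc44a1, and in H rats alone 0.115 for Slc40a1, -0.01 for Slc25a1, -0.175 for Slc6a6 and -0.53 for Slc39a1. Without BN rats 4 and 5 they were -0.089 for Slc2a1, -0.332 for Slc30a4, -0.057 for Slc30a5, -0.502 for Slc39a8 and -0.031 for Slc38a2. The mean over probe sets gave -0.099 for Slc30a4, and quantile normalisation and centring gave -0.0019 and -0.02 for Slc30a5. Leaving out single rats gave -0.022 to 0.583 for Slc30a4, -0.069 to 0.0685 for Slc30a5 and -0.237 to 0.5605 for Slc39a8. The rat numbers do not pair the strains (correlations of deviations of same-numbered rats -0.28 to 0.24, over 0.1 in 2 of 5 pairs); with the replicate block, calls numbered 9 in ACI and 8 in BN among the 111 expressed carriers (19 and 13 without), 17 and 14 among all 308 (30 and 30), and 4 and 2 among other transporters (7 and 5). H rats alone gave 0 in ACI and 0 in BN among expressed carriers, 2 and 0 among all, and 0 and 0 among other transporters. The fold changes of all 25 called named genes kept their sign in H rats. For all of these genes but Slc7a1 the strains did not overlap, so no choice of rats could turn the sign. S rats alone gave 10 other transporters in BN. The lymphocyte covariates gave 2 and 1, 6 and 7, and 1 and 1; the muscle covariate gave 6 in BN among expressed carriers, 19 and 11 among all, and 2 in BN among other transporters. Without BN rats 4 and 5, BN calls were 25, 50 and 10. Trended and robust variance gave 12 in ACI, and centring on expressed probe sets 23 in ACI and 21 in BN, among expressed carriers. Leaving out single rats gave 11 to 19 in ACI and 10 to 17 in BN among expressed carriers, and 19 to 29 and 20 to 36 among all; the lowest ACI counts came without ACI rat 2 or 4. The causes were not tested, beyond the smaller number of rats in some fits. A level rule of 5 gave 147 genes and one of 7 gave 96.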

Other observations

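Of the 186 solute carrier genes under the level rule, 7 (3.76%) were called higher in ACI and 11 (5.91%) higher in BN, against 2.6% and 3.54% of all 6418 genes with a mean under 6 in both strains; whether the carriers differ from those genes was not tested. Among those higher in BN were Slc7a11 (xCT), the cystine-glutamate exchanger, at 2.45 ± 0.07 in ACI and 5.22 ± 0.88 in BN, and Slc47a1 (MATE1), an exporter of organic cations, at 2.31 ± 0.04 in ACI and 5.36 ± 0.76 in BN (adjusted p = 0.00238 and 0.000786). The lactate and monocarboxylate family Slc16 had Slc16a3, Slc16a6 and Slc16a7 higher in BN, averaging 2.96, 3.06 and 2.41 in ACI and 4.59, 5.09 and 4.18 in BN, opposite to Slc16a1. All 3 ACI means lay under 4, where the arrays hold little more than background. The BN means of Slc16a3 and Slc16a7 lay close to that level. Higher in ACI were Slc6a14, an amino acid importer known in mammary gland, at 5.77 ± 0.39 in ACI and 4.17 ± 0.19 in BN (adjusted p = 0.00121), and Slc6a4, the serotonin carrier, at 5.22 ± 0.56 in ACI and 3.36 ± 0.34 in BN (adjusted p = 0.00367).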
